A study of Mus musculus with 6 samples.

Results

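Integrins, syndecans, glypicans and collagen receptors are the surface proteins by which a cell holds on to the matrix around it, and 33 of their genes were followed through fat cell formation in culture. The rule that picks them uses gene names and no measured value, but the set was chosen with earlier results of these data known. All 33 were found by symbol among the 54752 genes of the deposited tables. They comprised 12 integrin alpha subunits, 8 integrin beta subunits, 4 syndecans with 5 glypicans, and 4 other receptors, namely the hyaluronan receptor gene Cd44, the collagen receptor kinase genes Ddr1 and Ddr2, and the dystroglycan gene Dag1. The study sequenced RNA of 3T3-L1 adipocytes (3 libraries) and 3T3-L1 preadipocytes (3 libraries). 3T3-L1 is a mouse embryonic fibroblast line that turns into fat cells in culture. The labels give all 6 samples the strain C57BL/6J, the tissue embryo, no treatment and the same medium text, which holds the unexplained abbreviation DMI. The day of harvest is not given in the sources used here, and the source name reads Adipocyte for every sample, so the groups rest on titles and cell type labels. No label says whether the replicates came from separate cultures. The p-values therefore weigh the spread among these libraries, and that spread may be technical.

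An integrin is a pair of 1 alpha and 1 beta chain that binds the matrix outside the cell and, through adaptor proteins, the actin cytoskeleton inside it. The alpha chain largely sets the ligand: some bind the RGD motif of fibronectin and vitronectin, some bind the laminins of basement membranes, and some bind collagens. Syndecans and glypicans carry heparan sulfate chains that bind matrix proteins and growth factors, syndecans through a membrane-spanning core and glypicans through a lipid anchor. Preadipocytes are flat, spread fibroblast-like cells in a matrix rich in fibronectin and fibrillar collagen, whereas a mature fat cell is round and wrapped in a basement membrane.

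The labels were checked first. Pparg, the master regulator of fat cell formation, was higher in adipocytes by 3.90 on the log2 scale, the adipokine gene Adipoq by 15.20, and the preadipocyte gene Dlk1 differed by -4.53. Summed over 5 markers each, adipocyte genes stood at 12194 to 14389 CPM (counts scaled to a common library size) in adipocyte libraries and 72.2 to 74.1 CPM in preadipocyte libraries, and fibroblast genes at 804 to 1059.6 CPM in adipocyte libraries and 10408 to 12046 CPM in preadipocyte libraries. Total expected counts per library were 23890582 to 26314076 in adipocytes and 22496486 to 24444491 in preadipocytes. Adipocyte library 2 stood apart in ribosomal RNA, at 0.965% of counts against 0.138% and 0.224% in the other adipocyte libraries and 0.0775% to 0.09997% in preadipocyte libraries, and without it each call on a receptor gene given below as lower or higher held. Summed markers of macrophages (6 genes, 0.952 to 1.68 CPM in adipocyte and 1.86 to 2.40 CPM in preadipocyte libraries), endothelium (5 genes, 0.346 to 1.34 CPM in adipocyte and 1.14 to 1.42 CPM in preadipocyte libraries), epithelium (5 genes, 0.432 to 1.298 CPM in adipocyte and 0 to 0.474 CPM in preadipocyte libraries) and T cells (4 genes, 0 to 0.0865 CPM in adipocyte and 0 to 0.0391 CPM in preadipocyte libraries) were near 0 in both states. Of these markers Adgre1, Itgam, Krt5 and Cd3e had 0 counts in all 6 libraries, and the others had some counts. Csf1r had 10 counts over the adipocyte and 117 over the preadipocyte libraries and was lower in adipocytes (log2 fold change -3.29, edgeR adjusted p = 3.9e-04). In the same order, Cd68 had 49 and 40 counts, Krt18 51 and 9, and Pecam1 26 and 40.

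The comparison asks which matrix receptors a cell transcribes before and after it becomes a fat cell. Most of the receptor genes were lower in adipocytes. The 3 that were higher were the integrin genes Itga6 (25.7-fold) and Itga7 (48.0-fold) and, by a smaller margin, Dag1 (1.54-fold), whose products bind laminin. Itga3, grouped with the laminin-binding chains as well, was 5.54-fold lower, and the 5 tested genes Itga1, Itga4, Itga10, Itgb2 and Itgb4 were not called. Of the 33 genes, 29 had enough counts to be tested, and a gene could reach that minimum through either state alone. In the quasi-likelihood test of edgeR, adjusted by Benjamini and Hochberg's method over all 14726 tested genes, 24 of the 29 passed an adjusted p of 0.05, or 82.8%, beside 73.5% of all tested genes. Lower in adipocytes were 21, or 72.4%, beside 37.9% of all tested genes, and 19 of these were at least 2-fold lower, or 65.5%, beside 21.8%. Higher were 3, or 10.3%, beside 35.7%. The 2 states did not overlap in CPM for 24 of the 29, or 82.8%, beside 76.5%. The median log2 fold change of adipocytes over preadipocytes was -1.79 over the 29 genes and -0.06 over all tested genes. In bulk RNA, fewer cells that express a gene and less of its RNA per cell cannot be told apart.

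The scaling between libraries bears on these counts. The values above use TMM factors, which were 0.880 to 0.902 in adipocyte and 1.11 to 1.13 in preadipocyte libraries. Without them, on total counts alone, the log2 fold change of the median gene shifted by -0.33, and in a limma fit to log2(TPM + 1), with TPM the length-scaled abundance within a library, by -0.48. Of all genes past the threshold, 48.5% were higher in adipocytes with TMM factors, 34.3% with total counts and 28.2% in the limma fit to TPM. The receptor genes were 3 higher and 21 lower with TMM factors, 3 higher and 22 lower with total counts, and 2 higher and 22 lower with limma. Relative to the median of all tested genes, the median receptor gene stood at -1.73 with TMM factors, -1.73 with total counts and -1.02 in the limma fit to TPM.

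**Figure D1:**
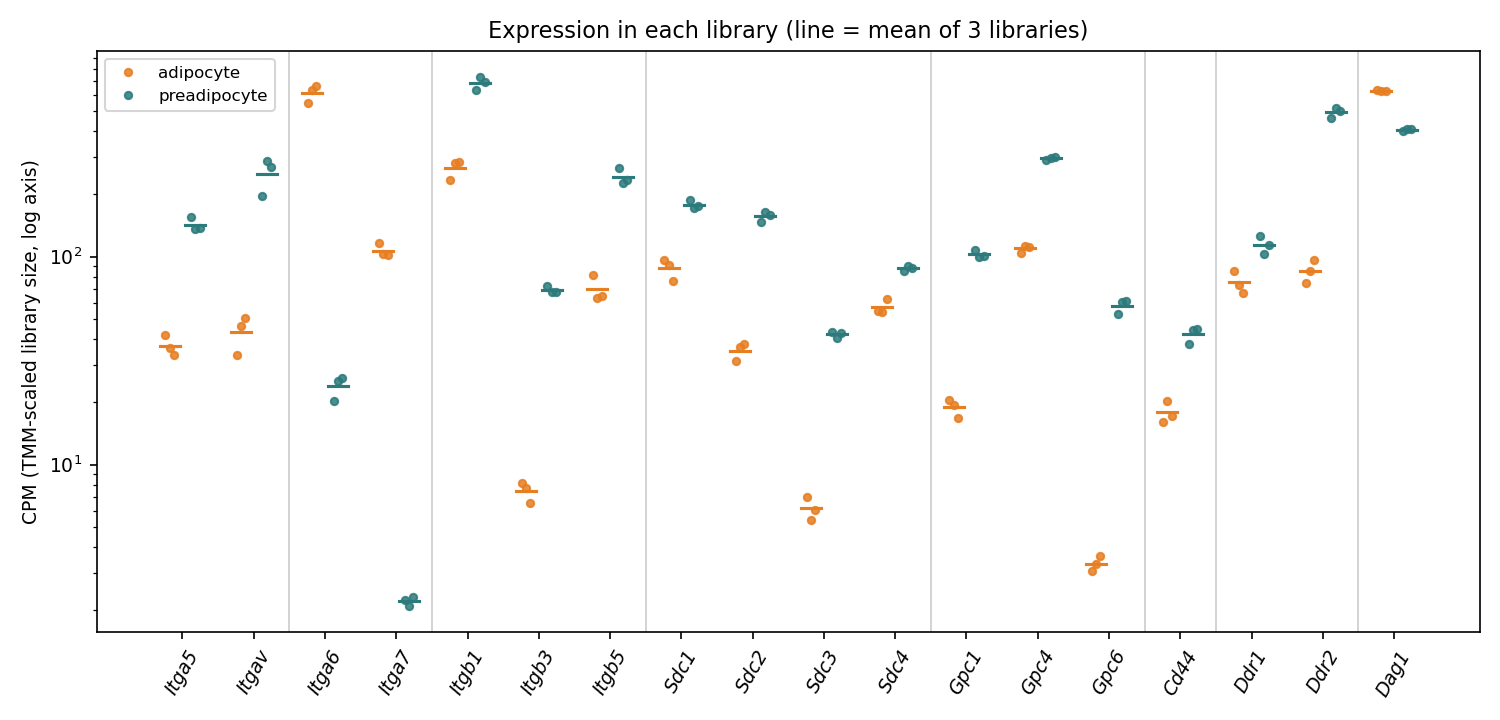
CPM (log axis) of the 18 called receptor genes that reached 10 CPM in their higher state, with 1 point per library, adipocyte libraries to the left of preadipocyte libraries, and a line at the mean of 3 libraries. The points of the 2 states are apart for each of the 18, with adipocytes above preadipocytes for Itga6, Itga7 and Dag1 and below them for the rest.

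The alpha subunits that read the RGD motif were all lower in adipocytes, 3 of 3, beside 37.9% of all tested genes. Itgav (ENSMUSG00000027087.11, chromosome 2, 83724397 to 83806916, plus strand, GRCm38) encodes the alpha v chain, which pairs with several beta chains into vitronectin and fibronectin receptors. It had 33.5, 46.5 and 50.9 CPM in adipocyte libraries, against 194, 287 and 269.9 CPM in preadipocyte libraries. Every adipocyte library lay below every preadipocyte library, and library 1 was the lowest of its state in both. Itgav fell by 2.52 on the log2 scale (standard error 0.19, edgeR adjusted p = 3.05e-06), which is 5.74-fold. Itga5 (ENSMUSG00000000555.8, chromosome 15, 103344286 to 103366763, minus strand) encodes the alpha chain of the classical fibronectin receptor. It had 41.98, 36.2 and 33.5 CPM in adipocyte libraries, against 155, 135 and 137 CPM in preadipocyte libraries. Here library 1 was the highest of its state in both, and the states were again apart. Itga5 fell by 1.93 on the log2 scale (standard error 0.10, edgeR adjusted p = 3.06e-07), or 3.82-fold. Itga8, the alpha chain of the nephronectin receptor, was scarce in both states, at 0.1297, 0.187 and 0.303 CPM in adipocyte libraries and 1.25, 1.54 and 1.31 CPM in preadipocyte libraries, and was 6.47-fold lower (edgeR adjusted p = 6.51e-05). The Itga8 call was lost in the limma fit to TPM, at -0.35 with an adjusted p of 0.0809.

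The laminin-binding alpha subunits went both ways, with 2 higher and 1 lower in adipocytes, beside 35.7% higher and 37.9% lower over all tested genes. Itga6 (ENSMUSG00000027111.15, chromosome 2, 71745616 to 71858416, plus strand) encodes the alpha chain of a widely used laminin receptor. It had 549, 631 and 662 CPM in adipocyte libraries, against 20.3, 25.3 and 26.1 CPM in preadipocyte libraries. The lowest adipocyte library was far above the highest preadipocyte library. Itga6 rose by 4.68 on the log2 scale (standard error 0.13, edgeR adjusted p = 8.24e-09), which is 25.7-fold. Itga7 (ENSMUSG00000025348.9, chromosome 10, 128933818 to 128958282, plus strand) encodes the laminin-binding alpha chain best known from muscle fibres. It had 116, 102 and 101 CPM in adipocyte libraries, against 2.23, 2.09 and 2.32 CPM in preadipocyte libraries. All 3 preadipocyte libraries lay close together, far below the adipocyte ones. Itga7 rose by 5.58 on the log2 scale (standard error 0.11, edgeR adjusted p = 1.92e-09), or 47.95-fold. Itga3, the third chain of this class, had 1.25, 1.401 and 0.995 CPM in adipocyte libraries and 7.24, 6.12 and 6.86 CPM in preadipocyte libraries, and was 5.54-fold lower (edgeR adjusted p = 1.74e-06).

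Other measures moved beside Itga7. The gene Mettl7b, on the opposite strand, shares 9 exon bases with Itga7 in the annotation, and it stood at 27.8, 25.7 and 26.5 TPM in adipocyte libraries and 0.26, 0.14 and 0.19 TPM in preadipocyte libraries. The library strandedness is not given in the sources used here, and the part of these 9 bases in the Itga7 value was not tested. Of 4 smooth muscle markers, summing to 94.5 to 115 CPM in adipocyte and 165 to 210.4 CPM in preadipocyte libraries, Myh11 had 33.1, 33.3 and 28.7 CPM in adipocyte libraries and 0.431, 0.593 and 0.436 CPM in preadipocyte libraries. Desmin (Des) had 75.5, 61.99 and 60.5 CPM in adipocyte libraries and 1.84, 1.304 and 1.38 CPM in preadipocyte libraries. Smooth muscle actin (Acta2) moved the other way, with 6.44, 4.02 and 5.28 CPM in adipocyte libraries and 208, 163 and 165 CPM in preadipocyte libraries, and calponin (Cnn1) had 0.134 ± 0.0792 CPM in adipocytes and 0.113 ± 0.0594 CPM in preadipocytes (SD, n = 3 each). The part of other cell types in the Itga7 result was not tested. In total, 12 of the 33 receptor genes share exon bases with 13 other annotated genes, and apart from Mettl7b none of those 13 exceeded 1.35 TPM in any library.

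The collagen-binding alpha subunits were low throughout. In adipocytes 2 of 4 were lower and none higher, beside 37.9% lower and 35.7% higher over all tested genes. Itga11, a receptor for fibrillar collagen on fibroblasts, had 1.04, 1.21 and 1.601 CPM in adipocyte libraries and 4.74, 5.29 and 4.36 CPM in preadipocyte libraries, and was 3.72-fold lower (edgeR adjusted p = 2.34e-05). Itga2 had 2 counts over the 3 adipocyte libraries, against 56 over the 3 preadipocyte libraries, which by the ratio of counts is 24.2-fold lower (95% Poisson interval 6.69 to 199.5, counting error only). The edgeR log2 fold change was -4.37 (adjusted p = 3.29e-04). Both adipocyte counts were in library 2, and without it edgeR gave -7.15 (adjusted p = 3.79e-04), a value against libraries at 0 that depends on the prior count. Itga1 had 5.97, 7.15 and 8.91 CPM in adipocyte libraries and 6.22, 9.204 and 8.53 CPM in preadipocyte libraries, with overlapping states and no call (log2 fold change -0.12, edgeR adjusted p = 0.589). Itga10 averaged 1.38 ± 0.231 CPM in adipocytes and 1.47 ± 0.171 CPM in preadipocytes (SD, n = 3 each) and was not called (log2 fold change -0.08, edgeR adjusted p = 0.745). Of the alpha chains better known from leukocytes and other cells, Itga4 averaged 0.272 ± 0.2104 CPM in adipocytes and 0.522 ± 0.113 CPM in preadipocytes (SD, n = 3 each) and did not pass (log2 fold change -0.95, edgeR adjusted p = 0.109). Without adipocyte replicate 2 it passed, at -1.72 with an adjusted p of 0.0135. Itga9 was not tested, with 5 counts over the adipocyte and 2 over the preadipocyte libraries.

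**Figure D2:**
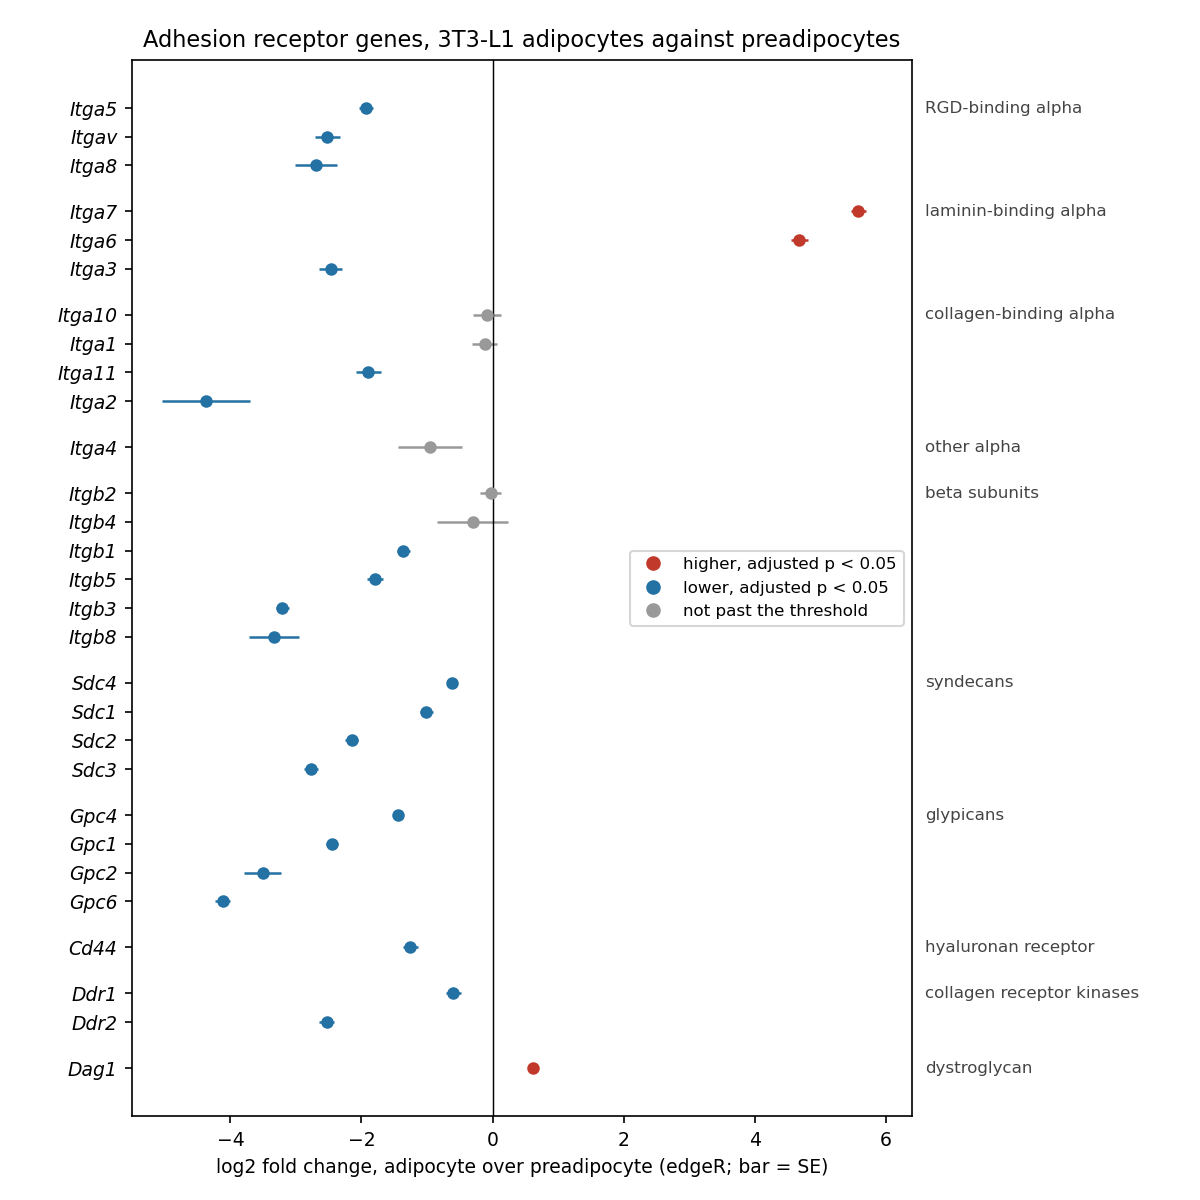
Log2 fold change of adipocytes over preadipocytes for the 29 tested receptor genes, grouped by class. The bar is the standard error derived from edgeR's F statistic, and colour marks the side of the threshold. Only Itga7, Itga6 and Dag1 lie past the threshold on the right, and 21 genes lie past it on the left, down to Itga2 and Gpc6.

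Beta subunits were lower in adipocytes in 4 of 6 tested genes, and none was higher, beside 37.9% lower and 35.7% higher over all tested genes. Itgb1 (ENSMUSG00000025809.15, chromosome 8, 128685654 to 128733200, plus strand) encodes the beta chain shared by most of the alpha chains above. It had 234, 281 and 284 CPM in adipocyte libraries, against 630.1, 728 and 689.6 CPM in preadipocyte libraries. The states were apart, and library 1 was the lowest in each. Itgb1 fell by 1.36 on the log2 scale (standard error 0.10, edgeR adjusted p = 2.74e-06), or 2.56-fold. Itgb5 (ENSMUSG00000022817.15, chromosome 16, 33829665 to 33949338, plus strand), whose product pairs with alpha v into a vitronectin receptor, had 81.97, 63.3 and 64.3 CPM in adipocyte libraries, against 265, 225 and 233 CPM in preadipocyte libraries. Library 1 was the highest of its state in both, and no library of one state reached into the other. Itgb5 fell by 1.79 on the log2 scale (standard error 0.12, edgeR adjusted p = 1.35e-06), or 3.45-fold. Itgb3 (ENSMUSG00000020689.4, chromosome 11, 104608000 to 104670476, plus strand), the other main partner of alpha v, had 8.13, 7.71 and 6.58 CPM in adipocyte libraries, against 71.9, 67.9 and 67.4 CPM in preadipocyte libraries. Its libraries lay close together within each state. Itgb3 fell by 3.21 on the log2 scale (standard error 0.10, edgeR adjusted p = 1.29e-08), or 9.24-fold.

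The remaining beta chains were scarce. Itgb8, a further partner of alpha v, had 0.173, 0.0467 and 0.1298 CPM in adipocyte libraries and 1.06, 1.19 and 1.45 CPM in preadipocyte libraries, and was 10.1-fold lower (edgeR adjusted p = 5.18e-05). Itgb2, the beta chain of leukocyte integrins, had 5.71, 5.47 and 4.02 CPM in adipocyte libraries and 5.52, 4.98 and 4.97 CPM in preadipocyte libraries, with overlapping states and no call (log2 fold change -0.03, SE 0.16, edgeR adjusted p = 0.891). In the limma fit to TPM Itgb2 passed downward, at -0.39. Itgb4, the partner of the alpha 6 chain in the hemidesmosomes of epithelia, averaged 0.306 ± 0.2596 CPM in adipocytes and 0.385 ± 0.0901 CPM in preadipocytes (SD, n = 3 each) and was not called (log2 fold change -0.30, edgeR adjusted p = 0.633), although the limma fit to TPM called it lower, at -0.25. Itgb7 had 7 counts over the adipocyte and 20 over the preadipocyte libraries, and Itgb6, of epithelia, had 0 counts in all 6 libraries. Neither was tested.

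Promoter sequences are shown for the RGD-reading receptor genes whose transcripts fell together (Itgav, Itga5 and Itgb5), and for Itgb1, whose product partners both of these alpha chains. Dag1 is shown as the only gene called higher with a promoter at hand, since Itga6 and Itga7 had none. The Dag1 call was lost in the limma fit to TPM. Each line holds the 250 bases upstream of the gene's RefSeq start on build GRCm38.p6, written 5′ to 3′ on the gene's strand, and capitals mark GC boxes (GGGCGG, or CCGCCC on the other strand), the motif of the Sp family of factors.
Itgav, chr2:83724147-83724396, plus strand: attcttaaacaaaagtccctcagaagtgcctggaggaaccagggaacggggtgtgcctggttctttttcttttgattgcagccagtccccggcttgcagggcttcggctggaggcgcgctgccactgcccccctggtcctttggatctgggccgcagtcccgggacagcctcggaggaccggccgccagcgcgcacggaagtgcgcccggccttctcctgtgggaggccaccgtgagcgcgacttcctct
Itga5, chr15:103366792-103367041, minus strand: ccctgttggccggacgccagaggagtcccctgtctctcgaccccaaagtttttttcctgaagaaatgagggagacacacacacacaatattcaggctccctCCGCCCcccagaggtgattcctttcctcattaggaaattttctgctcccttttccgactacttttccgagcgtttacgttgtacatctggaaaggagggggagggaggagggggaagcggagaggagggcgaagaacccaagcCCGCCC
Itgb5, chr16:33829415-33829664, plus strand: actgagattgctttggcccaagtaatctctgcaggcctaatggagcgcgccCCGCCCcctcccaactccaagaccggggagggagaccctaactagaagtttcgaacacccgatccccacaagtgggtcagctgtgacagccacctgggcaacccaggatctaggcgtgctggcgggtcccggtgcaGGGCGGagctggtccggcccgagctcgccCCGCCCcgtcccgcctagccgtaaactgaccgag
Itgb1, chr8:128685404-128685653, plus strand: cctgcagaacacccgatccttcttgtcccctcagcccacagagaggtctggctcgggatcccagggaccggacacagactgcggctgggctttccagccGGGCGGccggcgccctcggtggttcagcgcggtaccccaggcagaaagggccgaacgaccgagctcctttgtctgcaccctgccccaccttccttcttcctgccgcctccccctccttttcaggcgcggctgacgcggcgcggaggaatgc
Dag1, chr9:108263959-108264208, minus strand: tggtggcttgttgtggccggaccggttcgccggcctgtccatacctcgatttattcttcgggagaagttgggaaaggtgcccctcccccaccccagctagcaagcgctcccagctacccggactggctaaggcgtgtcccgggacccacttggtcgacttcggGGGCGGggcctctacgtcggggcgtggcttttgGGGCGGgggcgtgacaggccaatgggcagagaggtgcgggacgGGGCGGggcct
The 5 windows are GC-rich, from 55.6% in Itga5 to 68.0% in Itgb1. The letters of the GC box occur 3 times in Itgb5 and in Dag1, 2 times in Itga5, 1 time in Itgb1 and not at all in Itgav. RefSeq promoters were at hand for 25 of the 33 genes, and 13 of the 25 held the motif, beside 32.7% of all 32851 promoters in the table. Among the 17 genes that were lower in adipocytes and had a promoter, 10 held it. The CCAAT box (CCAAT or ATTGG) was found in 5 of the 25 and in 33.8% of all promoters, and the letters GGAATG or CATTCC, bound by TEAD factors, in 3 of the 25 and 12.6% of all. The AP-1 letters TGANTCA (N is any base) were in none of the 25 and in 6.75% of all promoters. The direct repeat bound by PPAR and RXR pairs (AGGTCA 2 times, 1 base apart, on either strand) was in none of the 25 and in 0.0335% of all. These matches describe the letters in the windows, no match of one motif shared a base with a match of another in the 25, and nothing was measured about binding. Each of the 25 genes has 1 promoter here, the nearest to its annotated start. The table can hold several per gene and was not limited to tested genes, so the shares are not a like comparison. The RefSeq starts of Itga9 and Ddr2 lay 105002 and 21818 bases from the annotated start.

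The make-up of the integrin pool was compared within each library, as shares of summed TPM, which need no scaling between libraries and take transcript length into account. With 3 libraries against 3, the exact two-sided permutation test cannot give a p below 0.1, so none of these shares could pass 0.05, and they are given as values. Of the 12 alpha subunits, the laminin-binding ones held 90.8%, 91.6% and 90.9% of TPM in adipocyte libraries and 8.67%, 9.14% and 10.2% in preadipocyte libraries. The RGD-reading ones held 8.40%, 7.71% and 8.20% in adipocyte libraries and 89.1%, 88.2% and 87.4% in preadipocyte libraries. The laminin-binding class held the larger share in each adipocyte library and the RGD-reading class in each preadipocyte library, with an exact p of 0.1 for each. Itga6 alone held 77.5% ± 2.07 of alpha TPM in adipocytes and 7.17% ± 0.737 in preadipocytes (SD, n = 3 each). Itgav held 4.07% ± 0.721 in adipocytes and 53.6% ± 4.49 in preadipocytes, and Itga5 held 3.94% ± 0.860 in adipocytes and 34.3% ± 5.23 in preadipocytes (SD, n = 3 each). Itga7 held 13.5% ± 1.83 in adipocytes and 0.604% ± 0.028 in preadipocytes, and the collagen-binding chains 0.766% ± 0.0874 in adipocytes and 2.38% ± 0.219 in preadipocytes (SD, n = 3 each). The ratio of Itga6 to Itga5 TPM was 15.3, 21.4 and 24.3 in adipocyte libraries and 0.159, 0.237 and 0.246 in preadipocyte libraries.

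Within the beta pool the shares of the leading genes overlapped between states. Itgb1 held 66.0%, 74.5% and 74.7% of the TPM of the 8 beta subunits in adipocyte libraries and 61.2%, 67.2% and 65.6% in preadipocyte libraries, and these ranges overlapped (exact permutation p = 0.2). Itgb5 held 24.96% ± 4.52 in adipocytes and 30.4% ± 2.90 in preadipocytes (SD, n = 3 each), which also overlapped (exact permutation p = 0.3). A p of this size does not show that the shares were equal. The smaller share of Itgb3 was 1.31% in adipocytes and 4.22% in preadipocytes. Summed alpha TPM was 266, 299.7 and 321 in adipocyte libraries and 164, 200.02 and 198 in preadipocyte libraries, whereas summed beta TPM was 122, 133 and 136 in adipocyte libraries and 508, 557 and 541 in preadipocyte libraries. The 2 sums therefore stood in opposite order. Per unit of Itgb1 TPM, summed alpha TPM was 3.31, 3.03 and 3.14 in adipocyte libraries and 0.528, 0.534 and 0.557 in preadipocyte libraries (exact permutation p = 0.1, the smallest possible). These are ratios of RNA, and protein was not measured.

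**Figure D3:**
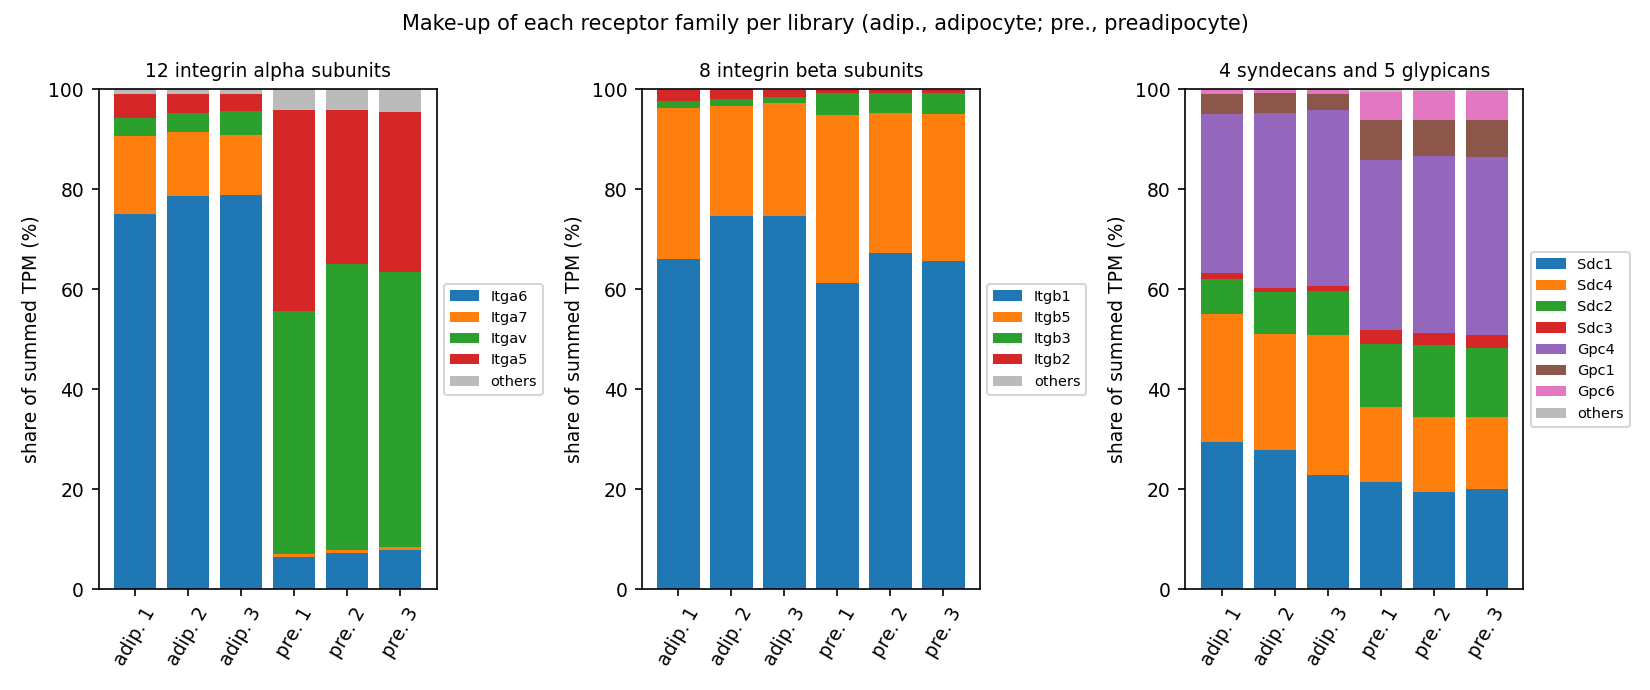
Stacked bars of the share of summed TPM (%) held by each gene within the 12 integrin alpha subunits, the 8 beta subunits, and the 4 syndecans with 5 glypicans, with 1 bar per library and adipocyte libraries on the left. Itga6 and Itga7 fill over 90% of the alpha bars in adipocytes, Itgav and Itga5 most of them in preadipocytes, and Itgb1 is the largest beta segment in each library.

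Heparan sulfate proteoglycan genes were lower in adipocytes in all 8 that were tested, beside 37.9% of all tested genes. These were 4 syndecans and 4 of 5 glypicans. Among the syndecans, Sdc3 (ENSMUSG00000025743.14, chromosome 4, 130792537 to 130826319, plus strand), best known from nerve and muscle, had 7.004, 5.42 and 6.06 CPM in adipocyte libraries, against 43.2, 40.5 and 43.02 CPM in preadipocyte libraries. Both states were tight, and Sdc3 fell by 2.77 on the log2 scale (standard error 0.11, edgeR adjusted p = 4.56e-08), or 6.84-fold. Sdc2 (ENSMUSG00000022261.6, chromosome 15, 32920723 to 33034935, plus strand), a syndecan of mesenchymal cells, had 31.3, 36.7 and 37.9 CPM in adipocyte libraries, against 147, 165 and 159 CPM in preadipocyte libraries. The states were well apart, and Sdc2 fell by 2.15 (standard error 0.095, edgeR adjusted p = 9.36e-08), or 4.44-fold. Sdc1 (ENSMUSG00000020592.14, chromosome 12, 8771323 to 8793715, plus strand), the syndecan of epithelia and plasma cells, had 96.3, 91.5 and 76.4 CPM in adipocyte libraries, against 187, 171 and 175 CPM in preadipocyte libraries. It fell by 1.01 (standard error 0.098, edgeR adjusted p = 1.61e-05), or 2.01-fold, without overlap. Sdc4 (ENSMUSG00000017009.3, chromosome 2, 164424247 to 164443887, minus strand), which works beside integrins in focal adhesions, had 54.8, 53.95 and 62.4 CPM in adipocyte libraries, against 85.4, 89.9 and 87.7 CPM in preadipocyte libraries. Its difference was the smallest of the syndecans, 1.54-fold lower (log2 fold change -0.62, SE 0.081, edgeR adjusted p = 1.13e-04), still without overlap.

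The glypicans spanned a wide range of differences. Gpc6 (ENSMUSG00000058571.11, chromosome 14, 116925315 to 117976544, plus strand) had 3.07, 3.32 and 3.63 CPM in adipocyte libraries, against 52.96, 60.4 and 60.9 CPM in preadipocyte libraries. That gap, 17.4-fold lower (log2 fold change -4.12, SE 0.11, edgeR adjusted p = 6.01e-09), was the widest among the 18 more abundant genes that were called, apart from the rises of Itga6 and Itga7. Gpc1 (ENSMUSG00000034220.7, chromosome 1, 92831645 to 92860779, plus strand), which binds growth factors such as the fibroblast growth factors, had 20.5, 19.3 and 16.8 CPM in adipocyte libraries, against 108, 99.5 and 101 CPM in preadipocyte libraries. The states were apart, and Gpc1 fell by 2.45 on the log2 scale (standard error 0.095, edgeR adjusted p = 4.25e-08), or 5.45-fold. Gpc4 (ENSMUSG00000031119.4, chromosome X, 52053021 to 52165252, minus strand), whose shed protein is known as an adipokine that binds the insulin receptor, had 104, 112 and 111 CPM in adipocyte libraries, against 291, 297 and 303 CPM in preadipocyte libraries. Gpc4 fell by 1.44 (standard error 0.071, edgeR adjusted p = 1.89e-07), or 2.71-fold, with narrow spread in each state. Gpc2, mostly of developing neurons, had 0.346, 0.2803 and 0.173 CPM in adipocyte libraries and 3.64, 2.92 and 2.65 CPM in preadipocyte libraries, and was 11.3-fold lower (edgeR adjusted p = 4.55e-06). Gpc3 had too few counts to be tested, with 0 over the adipocyte and 10 over the preadipocyte libraries, which is at least 2.88-fold lower against a floor of 3 counts over the adipocyte libraries. Without the low-count filter it was tested and passed, with an edgeR adjusted p of 0.0171.

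The make-up of the proteoglycan pool differed as well. Summed TPM of the 4 syndecans and 5 glypicans was 165, 166 and 167 in adipocyte libraries and 601, 637 and 644 in preadipocyte libraries. Syndecans held 63.2%, 60.2% and 60.7% of it in adipocyte libraries and 51.8%, 51.3% and 50.9% in preadipocyte libraries, without overlap (exact permutation p = 0.1, the smallest possible). Sdc4 held 25.5% ± 2.48 in adipocytes and 14.8% ± 0.299 in preadipocytes, and Sdc1 held 26.8% ± 3.48 in adipocytes and 20.3% ± 1.04 in preadipocytes (SD, n = 3 each). Gpc4 held 33.9% ± 1.89 in adipocytes and 34.97% ± 0.726 in preadipocytes (SD, n = 3 each), and its ranges overlapped (exact permutation p = 0.5). Gpc6 held 0.902% in adipocytes, against 5.71% in preadipocytes.

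Of the 4 other receptors, 3 were lower in adipocytes, beside 37.9% of all tested genes. Ddr2 (ENSMUSG00000026674.9, chromosome 1, 169972307 to 170110762, minus strand), a receptor kinase that fibrillar collagen activates in mesenchymal cells, had 74.8, 85.1 and 95.96 CPM in adipocyte libraries, against 463, 519 and 498 CPM in preadipocyte libraries. No library came near the other state, and Ddr2 fell by 2.53 on the log2 scale (standard error 0.11, edgeR adjusted p = 7.57e-08), or 5.78-fold. Ddr1 (ENSMUSG00000003534.17, chromosome 17, 35681567 to 35704621, minus strand), its relative in epithelia, had 85.7, 72.8 and 66.9 CPM in adipocyte libraries, against 125, 103 and 114 CPM in preadipocyte libraries. The states did not overlap but were closer, at 1.51-fold lower (log2 fold change -0.60, SE 0.11, edgeR adjusted p = 0.00111). In TPM, Ddr1 averaged 29.8 ± 3.33 in adipocytes and 80.1 ± 5.41 in preadipocytes (SD, n = 3 each), and its log2 fold change was -1.40 in the limma fit. That fit shifted the log2 fold change of the median gene by -0.48, and the part of transcript length in the Ddr1 value was not tested. The ratio of Ddr2 to Ddr1 TPM was 0.450, 0.553 and 0.645 in adipocyte libraries and 1.33, 1.77 and 1.56 in preadipocyte libraries, so that Ddr1 was the more abundant of the pair in adipocytes and Ddr2 in preadipocytes. Cd44 (ENSMUSG00000005087.17, chromosome 2, 102811141 to 102901665, minus strand), the main hyaluronan receptor, had 16.1, 20.2 and 17.2 CPM in adipocyte libraries, against 38.01, 44.5 and 44.9 CPM in preadipocyte libraries. It was 2.39-fold lower (log2 fold change -1.25, SE 0.11, edgeR adjusted p = 9.16e-06), without overlap.

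Dag1 (ENSMUSG00000039952.15, chromosome 9, 108204634 to 108263958, minus strand) encodes dystroglycan, which links laminin outside the cell to utrophin or dystrophin inside it. It had 628, 624 and 625 CPM in adipocyte libraries, against 399, 409.7 and 412 CPM in preadipocyte libraries. The spread within each state was small, and Dag1 was 1.54-fold higher (log2 fold change 0.62, SE 0.067, edgeR adjusted p = 3.28e-05). The size of this difference depended on the scaling. In TPM, Dag1 had 159.7, 157 and 161 in adipocyte libraries, against 142, 152 and 155 in preadipocyte libraries, and the limma fit to TPM gave a log2 fold change of 0.09 with an adjusted p of 0.219. With total counts edgeR gave 0.29, still past the threshold.

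Ranked by TPM within each state, different receptors led. In adipocytes Itga6 came first at 229 ± 26.8 TPM, followed by Dag1 at 159 ± 1.99, Itgb1 at 93.8 ± 11.6 and Gpc4 at 56.3 ± 3.499 TPM (SD, n = 3 each), and the libraries of these 4 did not overlap between neighbours. Sdc1 (44.4 ± 5.44), Sdc4 (42.3 ± 4.33) and Itga7 (39.6 ± 1.67 TPM) came next, and each overlapped its neighbour among the 3. In preadipocytes Itgb1 came first at 347 ± 32.6 TPM, then Gpc4 at 219.5 ± 12.4, Itgb5 at 162 ± 7.59 and Dag1 at 149.7 ± 6.84 TPM, again without overlap between neighbours. Below them, neighbours overlapped from Sdc1 (127 ± 2.97 TPM) through Ddr2, Itgav, Sdc4 and Sdc2 to Ddr1 (80.1 ± 5.41 TPM). The order between neighbours in this run is therefore not resolved.

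The libraries numbered 1 stood apart from the others of their state in a way that ran through the receptor genes. Among the 18 genes with full values above, those libraries were the lowest of both states for 8 (Itga6, Itgav, Itgb1, Sdc2, Gpc4, Gpc6, Cd44 and Ddr2) and the highest of both states for 7 (Itga5, Itgb3, Itgb5, Sdc1, Sdc3, Gpc1 and Ddr1). For the number 2 the same counts were 2 and 0, and for the number 3 they were 1 and 2. What the number stands for is not given in the labels. All 24 calls held, in the same direction, without adipocyte library 1 and without preadipocyte library 1, and with the replicate number as a block in the fit the 29 tested genes had the same calls and directions.

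The genes on either side of the receptors were counted by list. Of 24 tested integrin ligands, 3 were higher (12.5%, beside 35.7% of all tested genes) and 16 lower (66.7%, beside 37.9%). Their median log2 fold change was -1.09, beside -0.06 over all tested genes, and 1 was higher and 20 lower with total counts and likewise in the limma fit. Spp1 (osteopontin), an RGD ligand, averaged 4.54 ± 0.0409 CPM in adipocytes and 227 ± 10.5 CPM in preadipocytes (log2 fold change -5.65), Tnc (tenascin C) 0.926 ± 0.234 CPM in adipocytes and 24.6 ± 0.168 CPM in preadipocytes (-4.72), and Fbn1 (fibrillin) 20.2 ± 0.316 CPM in adipocytes and 299 ± 12.1 CPM in preadipocytes (-3.89; SD, n = 3 each, all past the threshold by edgeR). The 3 higher ligands were Npnt (nephronectin, 2.31), the basement membrane collagen gene Col4a1 (0.50) and Tgfb1 (0.44). The last of these had -0.09 and Col4a1 0.04 in the limma fit to TPM. Among the laminins, which were picked out after their values were seen as ligands of Itga6 and Itga7, Lamb1 averaged 645 ± 27.1 CPM in adipocytes and 682 ± 13.2 CPM in preadipocytes, and Lamc1 500.0 ± 20.7 CPM in adipocytes and 516 ± 25.9 CPM in preadipocytes (SD, n = 3 each), neither past the threshold with TMM factors. Lamb2 averaged 57.02 ± 4.27 CPM in adipocytes and 167 ± 17.9 CPM in preadipocytes (SD, n = 3 each) and fell by 1.55 on the log2 scale, Lama4 fell by 0.46 and Lama2 fell by 2.83. Lama5 stood at -0.53 and was not called, and Lama1 had 0 counts in all 6 libraries.

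Inside the cell, of 30 tested adaptors and kinases of integrin adhesions, 9 were higher (30%) and 16 lower (53.3%, beside 37.9% of all tested genes). Their median log2 fold change was -0.35. The share that was higher is near the 35.7% over all tested genes. In other fits 6 were higher and 19 lower with total counts, and 5 and 21 in the limma fit to TPM. The widest falls among the more abundant were of Tns3 (tensin, -3.58), Zyx (zyxin, -2.58) and Actn1 (the actin cross-linker alpha-actinin, -2.49), each past the threshold by edgeR. Zyx averaged 61.1 ± 9.87 CPM in adipocytes and 364 ± 44.2 CPM in preadipocytes (SD, n = 3 each). The 9 that were higher were Tns1 (1.85), the kinase gene Ptk2b (1.29), the kindlin genes Fermt2 (0.75) and Fermt3 (1.37), Lims2 (2.14), Parvg (2.96), Ilk (0.47), Arhgef7 (0.49) and Itgb1bp1 (0.53). Of these, Ilk and Arhgef7 stood at -0.15 and -0.07 in the limma fit to TPM. Fermt3, Lims2 and Parvg were scarce. Fermt3 averaged 0.894 ± 0.249 CPM in adipocytes and 0.345 ± 0.182 CPM in preadipocytes. In the same order, Lims2 averaged 6.02 ± 0.731 and 1.36 ± 0.197 CPM, and Parvg 3.11 ± 0.231 and 0.395 ± 0.00396 CPM (SD, n = 3 each). Tns1 averaged 781 ± 34.98 CPM in adipocytes and 216 ± 5.11 CPM in preadipocytes (SD, n = 3 each), so that 2 members of the tensin family, Tns1 and Tns3, went opposite ways.

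The partners of dystroglycan were called in both directions. Of 8 tested genes of the dystrophin complex, 3 were higher (37.5%, near the 35.7% over all tested genes) and 5 lower (62.5%, beside 37.9%; median log2 fold change -0.54), or 2 and 5 with total counts and likewise in the limma fit. Dtna (a dystrobrevin) averaged 0.239 ± 0.1003 CPM in adipocytes and 19.3 ± 1.04 CPM in preadipocytes (-6.32), Dtnb 4.34 ± 0.174 CPM in adipocytes and 21.97 ± 1.75 CPM in preadipocytes (-2.34), and Sgcd (delta-sarcoglycan) 36.4 ± 3.65 CPM in adipocytes and 8.296 ± 1.03 CPM in preadipocytes (2.13; SD, n = 3 each). The others that were higher were Utrn (utrophin, 1.05) and Sspn (0.27, but -0.05 with total counts and -0.24 with limma). Of 10 tested enzymes that build the sugar chains of dystroglycan, 5 were higher (50%, beside 35.7% of all tested genes) and 3 lower (30%, beside 37.9%). Their median log2 fold change was 0.19. With total counts 3 were higher and 5 lower (median -0.14), and in the limma fit to TPM 1 and 5 (median -0.27). The widest difference was of Pomt1 (1.95, at 78.6 ± 5.75 CPM in adipocytes and 20.4 ± 2.19 CPM in preadipocytes, SD, n = 3 each). Next came Rxylt1, which adds a xylose (0.59, but 0.12 with limma), and Pomgnt1 (0.56, but -0.074 with limma). Pomt2 (0.06) and Pomgnt2 (-0.06), named after their values were seen, were not called (edgeR adjusted p = 0.550 and 0.575). The lower ones were Pomk, a kinase that phosphorylates a mannose of these chains (-0.49), B4gat1 (-0.35) and B3galnt2 (-0.27).

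Of 8 tested partners and sheddases of the proteoglycans, 1 was higher (12.5%, beside 35.7% of all tested genes) and 6 lower (75.0%, beside 37.9%). Their median log2 fold change was -1.01, and in the limma fit to TPM 1 was higher and 7 lower. Mmp14, a membrane protease that cuts syndecans among other targets, averaged 141 ± 26.5 CPM in adipocytes and 1079 ± 87.8 CPM in preadipocytes (SD, n = 3 each) and fell by 2.93 on the log2 scale. Prkca, the kinase that Sdc4 binds, fell by 1.92, and the sheddase gene Adam10 fell by 1.55. Sdcbp2 was higher (2.57), at a mean of 0.859 ± 0.309 CPM in adipocytes and 0.139 ± 0.0864 CPM in preadipocytes (SD, n = 3 each). Of 12 tested genes of hyaluronan and its receptors, 2 were higher (16.7%, beside 35.7% of all tested genes) and 9 lower (75.0%, beside 37.9%). Their median log2 fold change was -1.05, and 1 was higher and 10 lower with total counts and likewise in the limma fit. Cemip, which degrades hyaluronan, averaged 0.844 ± 0.0942 CPM in adipocytes and 103 ± 1.57 CPM in preadipocytes (-6.92), and Ezr (ezrin), which ties Cd44 to actin, 6.75 ± 0.446 CPM in adipocytes and 53.96 ± 1.98 CPM in preadipocytes (-2.998; SD, n = 3 each). Cemip2 fell by 2.16, and the 2 that were higher were Nf2 (0.89) and Hyal2 (0.51). Each named gene passed the threshold by edgeR.

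**Figure D4:**
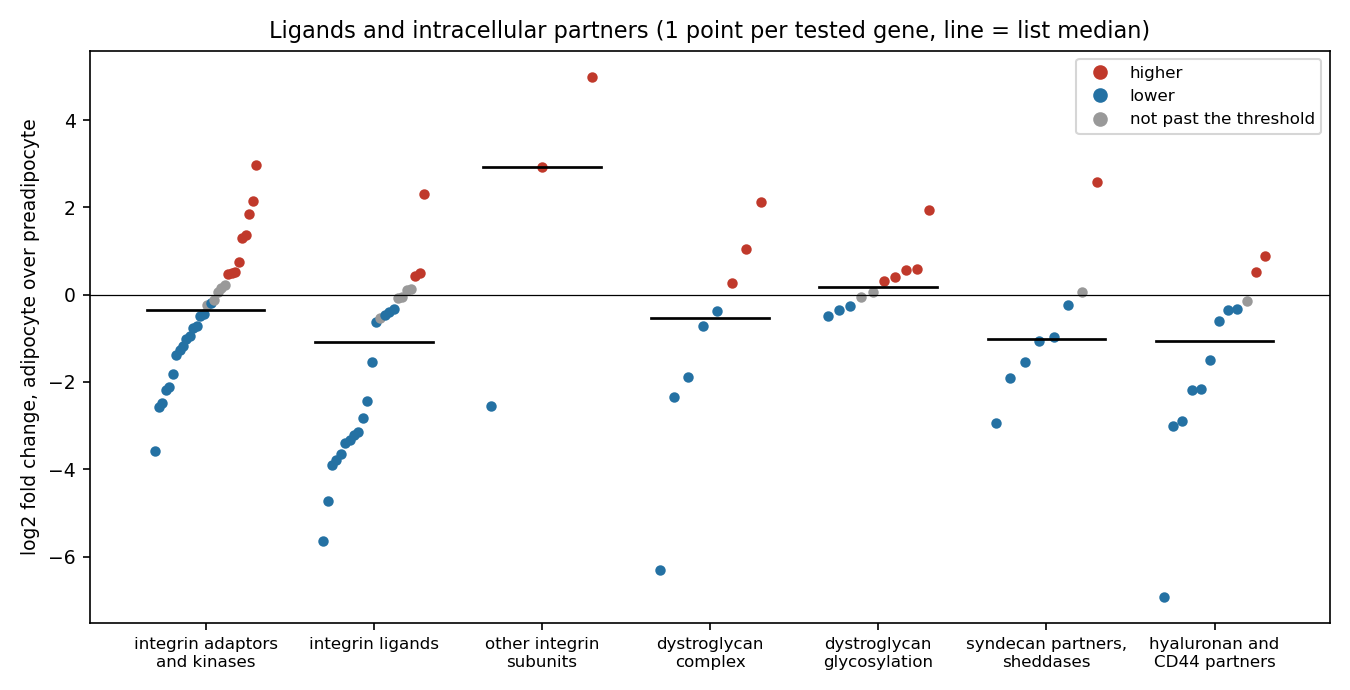
Log2 fold change of adipocytes over preadipocytes for each tested gene of 7 lists of ligands, partners and further integrin subunits, with a line at the list median and colour for the side of the threshold. Lower genes outnumber higher ones among the integrin ligands (16 against 3), the hyaluronan genes (9 against 2) and the proteoglycan partners (6 against 1). Over all tested genes, 37.9% were lower and 35.7% higher.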

How the data were processed

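RNA of 3 adipocyte and 3 preadipocyte libraries of 3T3-L1 cells was analysed from the deposited gene tables, 1 for each library. The authors' tables hold, per the file headers, an expected count, a TPM value and a length (abundance-weighted, in bases) per gene. The expected count is a model estimate in which a read matching several genes is divided among them, and it is unscaled between libraries, and TPM is scaled within each library. Per the submitters' processing notes, the tools were RSEM, Bowtie, Bowtie2 and DESeq2 and the builds GRCm38 and mm10. The sources used here give no versions, strandedness or RNA selection. Reads that match near-identical or overlapping genes make their counts uncertain.

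Identifiers without version were matched to GENCODE M21, and 54723 of 54752 were found. Total expected counts were 22496486 to 26314076 per library, and all 6 differed beyond counting noise (chi-square per degree of freedom at least 2.99, over 14400 genes). Expected counts were rounded to whole numbers, filtered by filterByExpr and tested with edgeR 4.0.16 (R 4.3.3; TMM, quasi-likelihood, group as the only term, Benjamini-Hochberg over all tested genes, threshold 0.05). Standard errors of edgeR log2 fold changes were derived as the absolute log2 fold change over the square root of the test's F statistic. CPM uses TMM-scaled library sizes. Shares and ratios use TPM with exact two-sided permutation tests. Intervals and floors (3 counts over a group) cover counting error only. Promoters are RefSeq's on GRCm38.p6. The test scripts were tested on simulated data.

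Across genes, same-numbered libraries deviated together from their group means in log2 CPM (r = 0.659, 0.301 and 0.265), above the pairing limit of 0.1. By that limit the number was entered as a block, in an alternative fit only. The main fit and the permutation tests did not pair the libraries, and the labels do not say what the number marks. The number 1 stood out alone: adipocyte library 3 correlated more with preadipocyte library 2 (0.446), and adipocyte library 2 with preadipocyte library 3 at 0.164. Alternatives were RLE factors, total counts, no low-count filter, the DESeq2 1.42.0 test, limma 3.58.1 on log2(TPM + 1) and log2(TPM + 0.1), a replicate block, shares of expected counts, and each library left out. Full values are given for called receptor genes with at least 10 CPM in the higher state. From each partner list the text names up to 3 called genes with the largest difference at that level and those against the list's majority. The receptor genes and lists were chosen with earlier results of these data known. Some genes of the dystroglycan lists are not reported here, and the counts and medians of those lists are given without them.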

Additional observations from a re-analysis of the deposited data

How the results depend on the processing

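The 24 called receptor genes were set against 13 alternatives, 312 comparisons in all. The call and direction were unchanged in 308, the call was lost in 4 and no direction reversed. The lost calls were of Dag1 (0.09 with either pseudocount, adjusted p = 0.219 by limma for each) and Itga8 (-0.35 and -1.15, adjusted p = 0.0809 and 0.0901 by limma) on log2(TPM + 1) and log2(TPM + 0.1). The cause was not tested. On log2(TPM + 1), a scale that understates the change of low genes, the log2 fold change was 3.999 for Itga6, 4.25 for Itga7, -1.44 for Itga3, -1.07 for Itga11, -0.32 for Itgb8, -0.24 for Itga2 and -1.68 for Gpc2. With the replicate block, 3 receptor genes were higher and 21 lower, 5763 genes were higher and 6212 lower over all genes, and the block changed no call among the 29 tested receptor genes. Genes higher in adipocytes numbered 5252 with TMM factors, 3266 with limma on log2(TPM + 1) and 3248 on log2(TPM + 0.1). They numbered 4929 to 5466 with 1 library left out.

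Direction was not stable for 4 receptor genes that were not called. Leaving out 1 library gave log2 fold changes of -0.27 to 0.021 for Itga1, -0.16 to 0.083 for Itga10, -0.11 to 0.17 for Itgb2 and -1.25 to 0.066 for Itgb4. Itgb2 stood at 0.034 with RLE factors or DESeq2 and 0.044 without the low-count filter. Itga4 passed at -1.28 with total counts and at -1.72 without adipocyte replicate 2.

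With expected counts in place of TPM, the difference in share, adipocyte minus preadipocyte, was -79.1 percentage points for RGD-reading alpha subunits (-80.1 in TPM), -2.15 for collagen-binding ones (-1.61), -0.078 for other alpha subunits (-0.042) and 8.44 for syndecans (10.1). With 1 library left out, the difference for laminin-binding subunits was 81.4 to 82.2 points. The counts of the scarce genes limit what could be seen of Itga9, Itgb6, Itgb7 and Gpc3. With 3 libraries per state no share or ratio could pass 0.05.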

Other observations

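Integrin alpha subunits outside the 33 genes were looked at as well, 6 in all, and 3 of them had enough counts for the test. Itgae, the alpha chain of a T cell integrin that binds E-cadherin, had 8.08, 8.13 and 7.44 CPM in adipocyte libraries, against 0.235, 0.277 and 0.218 CPM in preadipocyte libraries. It rose by 4.99 on the log2 scale (standard error 0.19, edgeR adjusted p = 3.35e-08), with all 3 adipocyte libraries above the preadipocyte ones, and by 1.74 in the limma fit to log2(TPM + 1). Of 4 T cell markers, Cd3e had 0 counts in all 6 libraries, and Cd3d, Cd4 and Cd8a each had 1 count over the adipocyte libraries and at most 1 over the preadipocyte libraries. Their sum was 0 to 0.0865 CPM in adipocyte and 0 to 0.0391 CPM in preadipocyte libraries, and their part in the Itgae level was not tested. Itgal, the alpha chain of a leukocyte integrin, averaged 2.82 ± 0.543 CPM in adipocytes and 0.3703 ± 0.1002 CPM in preadipocytes (SD, n = 3 each) and rose by 2.92. Itga2b, the alpha chain of the platelet fibrinogen receptor, averaged 4.31 ± 0.852 CPM in adipocytes and 25.3 ± 3.72 CPM in preadipocytes (SD, n = 3 each) and fell by 2.55 on the log2 scale (edgeR adjusted p = 1.16e-06). Itgam had 0 counts in all 6 libraries.

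The deposited tables also give the length of each gene's transcripts, weighted by the abundance of its isoforms. Among 12 receptor genes with at least 10 TPM in both states, 3 had lengths that did not overlap between states, and 1 of these, Ddr1, differed by at least 10%. The Ddr1 length was 3344, 3428 and 3377 bases in adipocyte libraries, against 2757, 2761 and 2785 bases in preadipocyte libraries, a ratio of 1.22 (exact permutation p = 0.1, the smallest that 3 against 3 libraries can give). Which isoforms make up the difference was not analysed here.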
